A study of Rattus norvegicus with 6 samples.

Results

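The genes described here encode the ephrins and their Eph receptors, the Slits and their Robo receptors, the netrins and their receptors Dcc, Neo1 and Unc5, and the neuropilins and plexins that receive semaphorins. They were chosen by symbol: every probe set of the array whose only platform gene symbol belongs to these families, which gave 70 probe sets of 40 genes among 31042 probe sets and 14217 named genes. The RNA was that of rat neuronal progenitor cells, which divide and give rise to neurons and glial cells. They were taken from the cortex of embryos at day E15.5 and grown on fibronectin with bFGF, a growth factor that sustains division, at 20 ng/ml. The 3 corticosterone samples received 1 µM of this hormone, the main glucocorticoid of rodents, and the 3 vehicle samples received its solvent dimethyl sulfoxide, both for 48 h, and the study asks which transcripts the hormone changed. The labels name no strain, sex or genotype. Each sample was hybridised to 1 Affymetrix array, and the series describes the 6 samples as couples of 1 treated and 1 vehicle sample.

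Guidance molecules steer migrating cells and growing axons. Ephrins sit in the membrane of one cell and bind Eph receptor tyrosine kinases on its neighbour, so they sort cells and set boundaries by contact, and in the embryonic cortex they act between radial progenitors as well as on axons. Slits are secreted and repel cells that carry Robo receptors, whereas netrins attract through Dcc and repel through Unc5 receptors. Neuropilins have short intracellular tails and work as co-receptors, with plexins for class 3 semaphorins and with VEGF receptors for VEGF, while plexins carry the signal into the cell through a domain that acts on small GTPases.

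Values are MAS5 signals, the linear brightness of a probe set. Differences are on the log2(signal + 28.6) scale, which understates the change of dim genes, and are corticosterone minus vehicle within couples. The median signal of the arrays lay between 108.5 and 134.4, and the median was higher with corticosterone in each couple. For Actb the 3′ probe set was 1.55 to 2.12 times as bright as the 5′ one, and couple 1 was lowest in both groups. Of the 9 progenitor markers on the array, Nes, Sox2, Vim and Fabp7 among them, all were bright enough to be tested, and their summed signal was 55730 to 67530 with vehicle and 61750 to 68530 with corticosterone, with 2, Emx2 and Nes, higher. The summed signal of 8 astrocyte markers was 16720 to 23120 with vehicle and 31420 to 36910 with corticosterone, with 4 of the 5 tested ones higher. These 4 were Slc1a3, Gja1, Aldoc and S100b, while Gfap did not pass (limma adjusted p = 0.13). Aqp4, Slc1a2 and Aldh1l1 were too dim to be tested. Slc1a3 and Gja1 carried most of the astrocyte sum, with means of 13310 and 5668 with vehicle and of 18560 and 10940 with corticosterone. Summed over 9 neuronal markers it was 15170 to 16570 and 13110 to 16010, with 1, Tubb3, lower, and over the 5 markers of oligodendrocyte precursors on the array 19940 to 24480 and 16620 to 23030, with 1, Pdgfra, lower. Olig1 carried most of the precursor sum, with means of 18440 and 17470. Pdgfra went from a mean of 2134 to 615.7 (log2 difference −1.64, limma adjusted p = 2.9e-05). Olig1, Olig2 and Cspg4 did not pass (adjusted p = 0.35, 0.066 and 0.46), and Sox10 was too dim to be tested. None of 8 endothelial markers on the array was bright enough to be tested, Vwf was under the background on every array, and their sums were 134.9 to 190.9 and 172 to 286.6. The 8 microglial markers summed to 248.2 to 300.8 and 320.1 to 397.1, with 2 tested and 0 changed (limma adjusted p = 0.74 and 0.93, and 0 at a raw p below 0.05), and Itgam was under the background on every array. The part that any change in the mix of cells had in the results below was not tested, and in bulk RNA fewer cells of a type and less RNA per cell cannot be told apart.

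Of the 40 guidance genes, 28 were bright enough to be tested and 12 were not. Among the 28, 7 rose, 1 fell and 20 did not pass (limma adjusted p under 0.05 over all 18625 probe sets tested, with the couple as a term). Those that rose were Nrp2, Unc5b, Nrp1, Epha2, Plxnb2, Robo2 and Efnb1, all of them receptors or co-receptors except the ephrin, and the one that fell was the ligand Ntn1. Most genes tested were receptors or co-receptors: the only ligands among the 28 were 4 ephrins, 1 netrin and 1 Slit. The background is the share over all 9910 genes tested: 11.7% rose and 7.77% fell, against 25% and 3.57% of the 28 guidance genes. The median difference was 0.19 over the 28 and −0.002 over all genes. With quantile normalization these medians were 0.084 and −0.016, and with 60% of probe sets left out 0.073 and −0.024. Once arrays were centred on their medians, the median difference was 0.088 over the 28 and −0.11 over all genes. Then 5 guidance genes rose and 2 fell, against 8.36% and 18.3% of all genes. All 3 corticosterone signals lay above all 3 vehicle signals for 8 of the 28, which holds for 14.8% of all genes, and below them for 0, against 11.4%. The difference was above 0 for 20 of the 28, against 49.7% of all genes, and had 1 direction in all couples for 17, against 54.8%. Among the 20 were Unc5c, Plxnd1 and Slit2, whose means passed the filter only through the corticosterone arrays. The other tested guidance genes passed it through both groups. Unc5c, Plxnd1 and Slit2 also entered the median of 0.19, and Plxnd1 was among the 8 without overlap. In a model without the couple as a block (replicate block) 0 of the 28 passed in limma (at a raw p below 0.05, 8 were higher and 0 lower), and the adjusted p of the 8 genes named above was then 0.078 to 0.41. Over all genes that model called 2.63% higher and 0.363% lower. Without couple 1, 4 rose and 0 fell (7.35% and 3.95% of all genes), and without couple 2, 3 rose and 0 fell (5.5% and 2.69%). With no filter on low signals, where all 40 were tested, 4 rose and 1 fell (5.83% and 2.88%). Of the 20 that did not pass, 10 had a 95% interval of the difference within 0.5 either way.

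**Figure D1:**
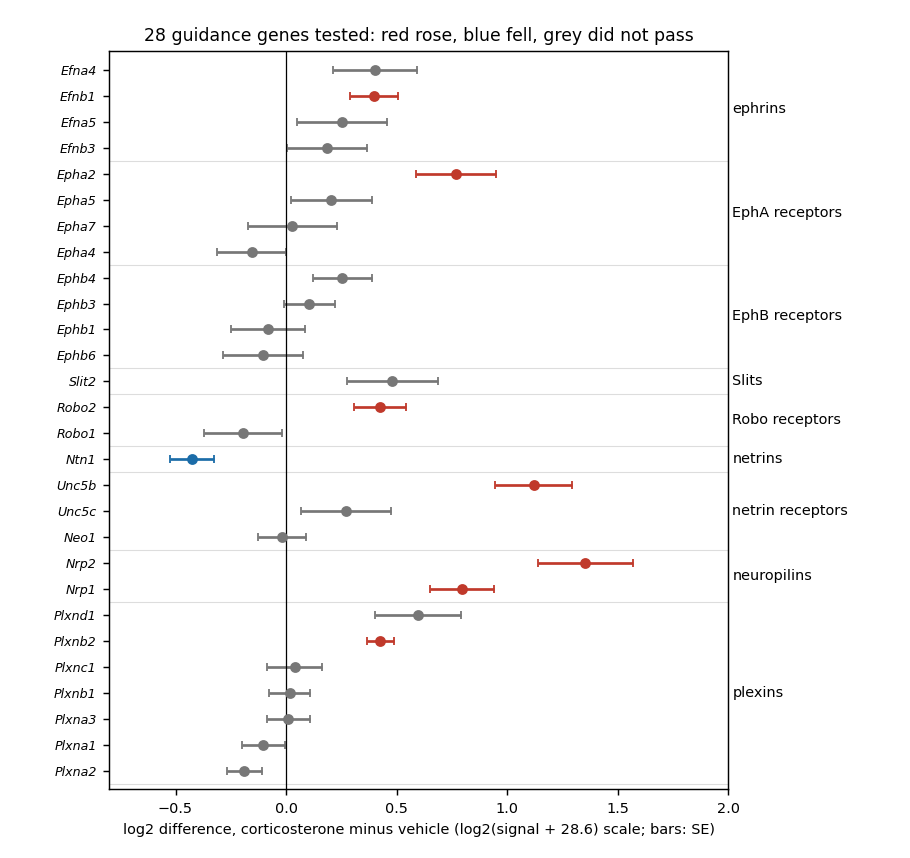
Log2 differences (horizontal axis, log2(signal + 28.6) scale, corticosterone minus vehicle) of the 28 guidance genes tested, grouped by family, with points for the limma estimate over 3 couples and bars for its SE. The neuropilins, Unc5b and Epha2 lie furthest to the right, between 0.77 and 1.36, and Ntn1 is furthest to the left at −0.43.

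Both neuropilins rose. Nrp2, which encodes the co-receptor preferred by semaphorin 3F, had signals of 33.5, 142.6 and 59.25 with vehicle in couples 1, 2 and 3, and of 202.8, 442.8 and 114.6 with corticosterone. Each corticosterone array was brighter than its own couple's vehicle array, but the groups overlapped, because the vehicle array of couple 2 was brighter than the corticosterone array of couple 3. The mean went from 78.5 ± 57.04 to 253 ± 170 (SD, n = 3), a log2 difference of 1.36 ± 0.22 (SE; limma adjusted p = 0.0016). With a pseudocount 4 times as large, 114, it was 0.87. Without couple 3 the difference was 1.68 and without couple 1 it was 1.08. A second Nrp2 probe set lay at or under the background signal of 22.8 on 5 of 6 arrays and was not tested.

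Nrp1, the co-receptor for semaphorin 3A and for VEGF, had signals of 221.5, 134.9 and 163 with vehicle and of 403.1, 324.2 and 240.5 with corticosterone. The groups did not overlap, and couple 2, dimmest of the vehicle arrays, had the largest difference, 1.11. The log2 difference was 0.80 ± 0.15 (SE; limma adjusted p = 0.0038, and 0.060 without couple 2). The other Nrp1 probe set read 126.9, 105.9 and 143.3 with vehicle and 315.2, 216.6 and 165.1 with corticosterone, and passed as well with 0.73 (adjusted p = 0.022). Both probe sets ordered the corticosterone arrays the same way, with couple 1 highest and couple 3 lowest.

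The only netrin tested fell, and 1 of the 3 netrin receptors tested rose. Unc5b, a netrin receptor of the repulsive class that is also prominent in blood vessels, had signals of 157.3, 259.5 and 384.2 with vehicle and of 462.7, 787.1 and 539 with corticosterone. The groups did not overlap, and couple 3, brightest with vehicle, moved least, by 0.46 against 1.402 and 1.502 in couples 1 and 2. The mean went from 267 ± 114 to 596 ± 170 (SD, n = 3), a log2 difference of 1.12 ± 0.17 (SE; limma adjusted p = 0.0014). Its second probe set rose by 0.80 (adjusted p = 0.0035), also without overlap, from 93.6, 143.9 and 164.3 to 181.3, 312.6 and 268.1.

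Ntn1, the founding secreted netrin, had signals of 433.8, 653.8 and 677.4 with vehicle and of 299.9, 463.7 and 539.5 with corticosterone. It was lower in each couple, by 0.49, 0.47 and 0.31, while the groups overlapped because both arrays of couple 1 were dim. The log2 difference was −0.43 ± 0.10 (SE; limma adjusted p = 0.014), and it did not pass without couple 1 (0.065), without couple 2 (0.11) or without the intensity trend (0.054). The other 2 Ntn1 probe sets lay below the filter. In the limma fit with no filter they gave 0.007 and −0.18, and neither passed (adjusted p = 0.99 and 0.72). Neo1, a relative of Dcc that binds netrins and repulsive guidance molecules, had means of 784 ± 83.1 and 789 ± 198 (SD, n = 3), a difference of −0.02 with a 95% interval from −0.26 to 0.22, and its second tested probe set gave 0.002. Unc5c, another receptor of the repulsive class, had a difference of 0.27 (adjusted p = 0.41), and its mean passed the filter only through the corticosterone arrays.

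Dcc, Unc5a and Ntn5 lay below the filter. Dcc, the attractive receptor, had signals of 70.6, 38.6 and 56.8 with vehicle and of 50.5, 34.5 and 27.3 with corticosterone, lower in each couple. Unc5a had 48.9, 13.2 and 64.3 with vehicle, where couple 2 was under the background, and 7.97, 10.4 and 7.90 with corticosterone, where all arrays were under it. In the fit with no filter its adjusted p was 0.12 in limma. Ntn5 was at or under the background on all 6 arrays.

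**Figure D2:**
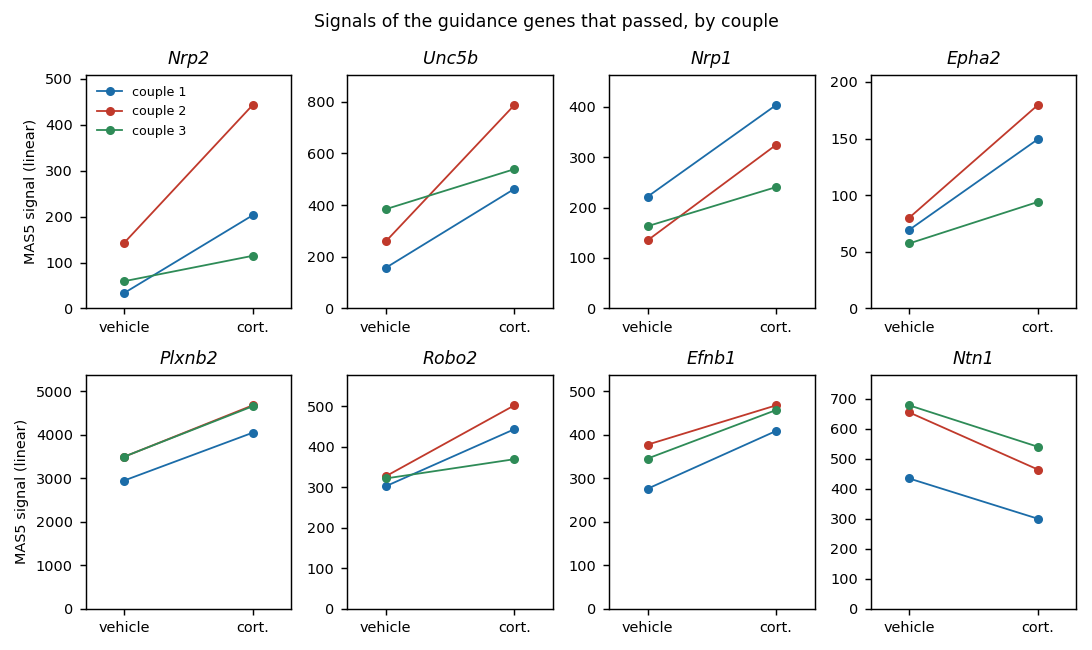
MAS5 signals (vertical axis, linear, from 0) of the 8 guidance genes that passed, with vehicle at left and corticosterone at right, and 1 line per couple. Every line rises for the first 7 genes and every line falls for Ntn1, and the lines of Nrp2 and Unc5b are steeper in couples 1 and 2 than in couple 3.

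The sequence upstream of 4 of the genes that rose is shown because these had the smallest adjusted p of the 28 and moved the same way in every couple. Each line gives the 250 bases before the annotated start of the gene, 5′ to 3′ on the gene's strand, from RefSeq on build GRCr8: Nrp1 at chr19:73256307-73256556 (plus strand), Nrp2 at chr9:71617004-71617253 (plus strand), Unc5b at chr20:29307271-29307520 (minus strand) and Plxnb2 at chr7:122137949-122138198 (minus strand). Capitals mark the GC box GGGCGG on either strand, a binding site of Sp1-type factors.
Nrp1: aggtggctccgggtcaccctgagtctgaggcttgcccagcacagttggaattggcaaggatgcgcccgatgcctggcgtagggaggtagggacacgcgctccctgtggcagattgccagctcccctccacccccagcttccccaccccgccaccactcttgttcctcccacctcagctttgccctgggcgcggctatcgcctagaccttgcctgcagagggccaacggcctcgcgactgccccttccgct
Nrp2: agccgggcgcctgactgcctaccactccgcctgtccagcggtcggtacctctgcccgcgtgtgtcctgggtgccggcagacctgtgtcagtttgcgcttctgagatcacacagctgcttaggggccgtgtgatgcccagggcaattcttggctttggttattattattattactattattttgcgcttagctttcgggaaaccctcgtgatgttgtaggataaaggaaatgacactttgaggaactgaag
Unc5b: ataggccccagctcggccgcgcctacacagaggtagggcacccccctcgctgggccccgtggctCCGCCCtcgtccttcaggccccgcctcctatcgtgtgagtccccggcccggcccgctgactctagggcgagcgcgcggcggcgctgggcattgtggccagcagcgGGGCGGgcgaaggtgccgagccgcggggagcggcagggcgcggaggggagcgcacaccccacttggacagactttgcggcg
Plxnb2: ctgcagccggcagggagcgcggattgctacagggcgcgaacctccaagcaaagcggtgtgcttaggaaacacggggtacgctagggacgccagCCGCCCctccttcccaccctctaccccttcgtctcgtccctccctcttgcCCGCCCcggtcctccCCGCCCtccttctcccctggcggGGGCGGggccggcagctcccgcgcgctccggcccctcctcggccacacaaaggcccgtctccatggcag

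Of the 40 guidance genes 32 matched the RefSeq promoter table by symbol, with 33 windows of 300 bases from 250 before to 50 after the start. The hexamer of the glucocorticoid receptor's binding site, AGAACA on either strand, was in 0 of the 7 windows of genes that rose, in 1 of the 33 in all, that of Ephb6, and in 20.7% of all 33469 windows in the table. A pair of such hexamers, AGAACA followed after 3 bases by TGTTCT with at most 2 of the 12 letters different, was in 0 of the 33 and in 1.87% of all. The windows of the guidance genes had a median GC content of 64% against 51.7% over all, and 60.6% of them held a GC box against 33.1%. The GC box was added after the base composition had been seen. These are matches of letters in a short window, and nothing on the binding of a factor follows from them.

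Among the plexins 1 of 7 tested genes rose. Plxnb2, a receptor for class 4 semaphorins that is abundant in neural progenitors, had signals of 2945, 3491 and 3493 with vehicle and of 4044, 4673 and 4651 with corticosterone. The groups did not overlap, and the differences within couples were nearly equal, at 0.45, 0.42 and 0.41. The log2 difference was 0.43 ± 0.06 (SE; limma adjusted p = 0.00076), the smallest adjusted p of the 28, and it passed without each couple in turn.

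Plxnd1, the receptor of semaphorin 3E, had signals of 67.1, 75.3 and 36.2 with vehicle and of 96.8, 142 and 75.6 with corticosterone. The brightest vehicle array and the dimmest corticosterone array were nearly equal, and the difference of 0.60 ± 0.19 (SE) did not pass (limma adjusted p = 0.058, and 0.038 without the intensity trend). Its mean passed the filter only through the corticosterone arrays.

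The A-type plexins, which pair with neuropilins, did not pass. Plxna1, Plxna2 and Plxna3 had differences of −0.10, −0.19 and 0.01, with 95% intervals from −0.32 to 0.11, from −0.36 to −0.01 and from −0.21 to 0.23. Plxna2 passed as lower with each array centred on its median (−0.30, limma adjusted p = 0.036). Plxnb1 and Plxnc1 had differences of 0.02 and 0.04. The second Plxnc1 probe set gave another answer, with signals of 299.9, 228.4 and 237.5 against 385.7, 281.1 and 349.4 and a difference of 0.37 (adjusted p = 0.058). The 3 probe sets of Plxnb1 gave 0.02, 0.05 and −0.30, and none passed (adjusted p = 0.93, 0.85 and 0.16).

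Among the Eph receptors 1 of 8 tested genes rose. Epha2, a receptor found on many epithelia, had signals of 69.4, 80.1 and 57.4 with vehicle and of 149.4, 179.6 and 94.03 with corticosterone. The groups did not overlap, and the difference was 0.77 ± 0.18 (SE; limma adjusted p = 0.015), or 0.47 with a pseudocount of 114. It did not pass without couple 1 (0.076), without couple 2 (0.14) or with no filter (0.066). Epha4, a receptor of both ephrin classes, had signals of 165.6, 235.2 and 109.5 with vehicle and of 119.6, 217.9 and 111.4 with corticosterone, and its difference was −0.16, with a 95% interval from −0.50 to 0.19. Its second tested probe set gave −0.18, and another, below the filter, gave 0.48 in the fit with no filter (adjusted p = 0.24). Epha5 and Epha7 had differences of 0.20 and 0.03, and neither passed.

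No EphB receptor passed in limma (adjusted p = 0.24 to 0.79, and 0 at a raw p below 0.05). Ephb4, the receptor of veins for ephrin-B2, was at 217 ± 34.2 and 265 ± 50.02 (SD, n = 3), a difference of 0.25. Ephb3 and Ephb6, the latter without kinase activity, had differences of 0.11 and −0.10. Ephb1 differed more between couples than any other gene of the 28 and is described with the couples below.

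All 4 ephrins tested had differences above 0, and 1 passed. Efnb1, a transmembrane ephrin of cortical progenitors encoded on the X chromosome, had signals of 275.6, 376.8 and 344.9 with vehicle and of 408.3, 467.1 and 456.3 with corticosterone. The groups did not overlap, and the difference was 0.40 ± 0.11 (SE; limma adjusted p = 0.030). Leaving out each couple in turn gave an adjusted p of 0.070 to 0.16, and it did not pass with no filter (0.067), with each array centred on its median (0.085), without the intensity trend (0.066) or as the mean over its probe sets (0.082). The other Efnb1 probe set gave 0.32 (adjusted p = 0.26), again without overlap. Efna4, a ligand held by a lipid anchor, had signals of 61.4, 82.7 and 67.8 against 114.1, 111.8 and 82.8, a difference of 0.40 (adjusted p = 0.18). Efna5 and Efnb3 had 0.25 and 0.19.

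Of the 2 Robo receptors tested, 1 rose. Robo2 had signals of 302.9, 327.5 and 322.1 with vehicle and of 443.8, 502.8 and 369.7 with corticosterone. The vehicle arrays were close together and lay below all corticosterone arrays, and the difference was 0.42 ± 0.12 (SE; limma adjusted p = 0.032). It did not pass without couple 1 (0.14) or without couple 2 (0.23), with quantile normalization (0.051), with no filter (0.079), with each array centred on its median (0.073), without the intensity trend (0.086), or as the mean over its 3 tested probe sets (0.32). The other 2 Robo2 probe sets gave −0.001 and 0.24 and did not pass. Robo1, with 1 probe set, had a difference of −0.20, with a 95% interval from −0.58 to 0.19.

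Of the secreted Slits only Slit2 was bright enough to be tested. It had signals of 38.3, 116.9 and 49.3 with vehicle and of 96.4, 148.2 and 64.7 with corticosterone, higher in each couple. The difference of 0.48 did not pass (limma adjusted p = 0.14), and its mean passed the filter only through the corticosterone arrays. Slit3 lay below the filter with 46.2, 24.7 and 49.4 against 7.05, 19.0 and 4.78. All its corticosterone arrays and none of its vehicle arrays were under the background. With the dim arrays taken at the background signal, the smallest fold difference between the groups was 1.68, lower with corticosterone. This value allows for no spread between arrays, and couple 2 differed by only −0.16. Slit3 did not pass in the fit with no filter (limma adjusted p = 0.11). Slit1 had 37.6 to 47.2 with vehicle and 34.5 to 52.0 with corticosterone.

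**Figure D3:**
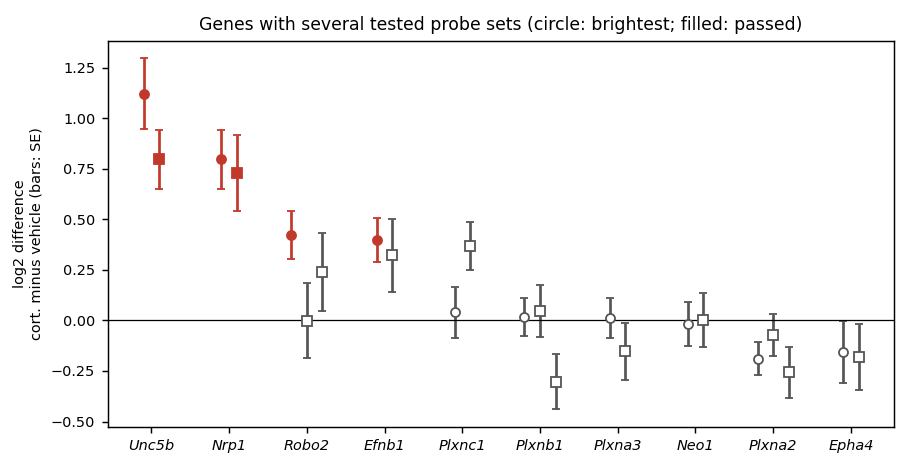
Log2 differences (vertical axis, corticosterone minus vehicle, bars SE) of the 10 guidance genes with several tested probe sets, with the brightest probe set as a circle and filled marks for those that passed. All probe sets of Unc5b and Nrp1 passed, while Robo2 and Efnb1 rest on 1 probe set each.

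Across probe sets, 41 of the 70 were tested, of which 10 changed, 9 up and 1 down, beside 15.9%, 9.4% and 6.45% of all probe sets. The 9 that rose were 2 each of Nrp1 and Unc5b and 1 each of Nrp2, Plxnb2, Epha2, Robo2 and Efnb1. Where the probe sets lie in their transcripts was not used here.

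The 12 genes below the filter were Epha3, Epha6, Epha8, Epha10, Efna1, Slit1, Slit3, Robo3, Ntn5, Dcc, Unc5a and Plxna4. Epha8 and Ntn5 were at or under the background on every array, and Epha10 on 5 of 6. Robo3, a Robo family member of commissural axons, had signals of 12.4, 43.0 and 20.3 with vehicle and of 43.3, 71.2 and 64.1 with corticosterone, higher in each couple and just without overlap. In the fit with no filter its difference was 0.74 ± 0.21 (SE; limma adjusted p = 0.096). The adjusted p of the 12 was 0.096 to 0.98 in that fit.

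**Figure D4:**
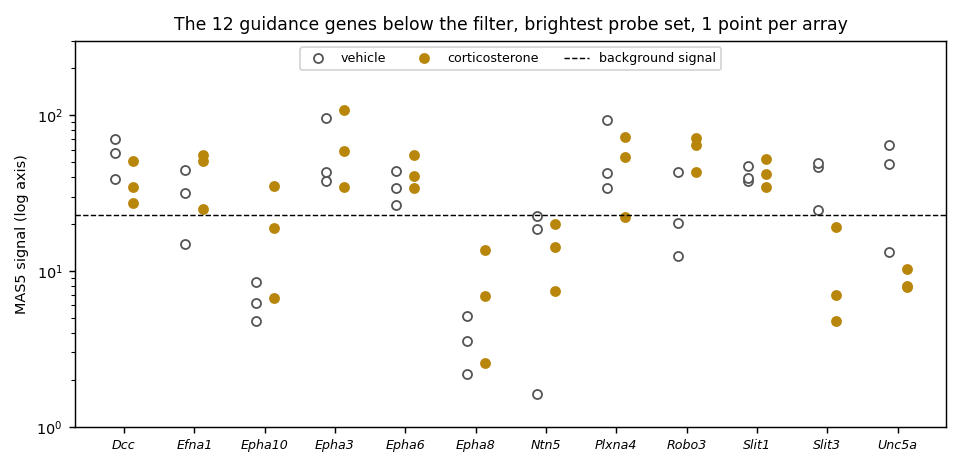
MAS5 signals (vertical axis, log) of the brightest probe set of the 12 guidance genes below the filter, 1 point per array, open for vehicle and filled for corticosterone, with the background signal of 22.8 as a dashed line. All filled points of Unc5a and Slit3 lie under the line, and all points of Epha8 and Ntn5 do.

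Couples differed more in these genes than in most others. The span of the couple means was above 1 on the log2 scale for 2 of the 28, Ephb1 and Nrp2, beside 1.91% of all genes, and the median span was 0.42 against 0.25. For 19 of the 28 (67.9%) that span exceeded the treatment difference, which is near the 65.3% of all genes. The highest couple was couple 2 for 18 of the 28, beside 33.3% of all genes. Ephb1 had signals of 130.4, 451.2 and 175.8 with vehicle and of 86.3, 393.8 and 242.4 with corticosterone. Couple 2 was far above the others in both groups, and the difference of −0.08 changed sign between couples. Nrp2, Slit2 and Epha4 were also highest in couple 2 in both groups.

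The same couple was high in some markers of fibroblast-like cells. In couples 1, 2 and 3, 11 mural and meningeal markers summed to 752.9, 1892 and 989.7 in the vehicle arrays and to 1075, 2973 and 1116 in the corticosterone arrays. Of these 11 markers, of which Cspg4 is also in the list of oligodendrocyte precursors, 5 were tested, 2 rose (Col1a2 and Acta2) and 0 were under the background on every array. The sum was carried by collagen genes and Lum: Col3a1 read 577.1 and 927.6 in couple 2 and 40.8 to 94.1 on the other 4 arrays, and Lum read 136.2 and 142.7 in couple 2 and 0.483 to 2.66 elsewhere. Other markers of the list did not follow it, since Acta2, Rgs5 and Foxc1 had their highest mean in couple 1 and Cspg4 in couple 3. The part of such cells in the signals of Ephb1, Nrp2, Slit2 and Epha4 was not tested. Without couple 2, Nrp2 passed with 1.302 (limma adjusted p = 0.043), Unc5b with 0.93 (0.036) and Plxnb2 with 0.43 (0.016). Nrp1, Epha2, Robo2, Efnb1 and Ntn1 then did not pass (adjusted p = 0.060, 0.14, 0.23, 0.10 and 0.11). The markers also gave signal in couples 1 and 3, so this is no test of the part of such cells.

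**Figure D5:**
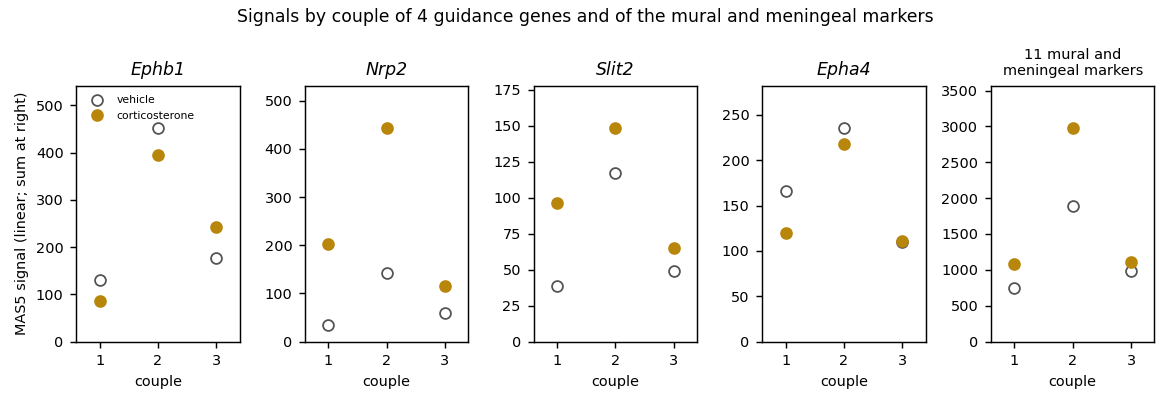
MAS5 signals (vertical axes, linear, from 0) of Ephb1, Nrp2, Slit2 and Epha4 in couples 1, 2 and 3, open for vehicle and filled for corticosterone, beside the summed signal of 11 mural and meningeal markers. Couple 2 is highest in every panel in both groups.

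Partners and intracellular effectors of these receptors moved both ways. Of 74 such genes listed, 70 were on the array under a single symbol and 64 were tested, of which 7 rose, 5 fell and 52 did not pass (limma adjusted p under 0.05), or 10.9% and 7.81%, near the 11.7% and 7.77% of all genes. By pathway, 3 of 14 Eph effectors rose, 0 of 9 of the Slit and Robo list changed (limma adjusted p = 0.13 to 0.85, and 1 at a raw p below 0.05), 1 rose and 2 fell among 13 of the netrin list, and 3 rose and 3 fell among 17 of the plexin list. None of the 11 shared cytoskeletal genes, such as Rhoa, Rac1 and Cdc42, passed (adjusted p = 0.15 to 0.99, and 3 at a raw p below 0.05). Without the couple as a replicate block, 2 effectors rose, Draxin and Abl2, and 0 fell (limma; at a raw p below 0.05, 7 were higher and 4 lower), beside 2.63% and 0.363% of all genes. Without couple 2, 4 rose and 3 fell, beside 5.5% and 2.69% of all genes.

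Vav3, an exchange factor for small GTPases that acts downstream of Eph receptors, had signals of 746.4, 1284 and 818.3 with vehicle and of 1730, 1954 and 1462 with corticosterone, a difference of 0.86 (limma adjusted p = 0.00027). Abl2, a tyrosine kinase that remodels actin, rose from 1565 ± 86.9 to 2229 ± 192 (SD, n = 3), by 0.50 (adjusted p = 0.00076). Draxin, a secreted repellent that binds Dcc and netrin, had 98.8, 120.6 and 137.3 against 378.1, 303.9 and 290.5. Its groups lay far apart, and its difference was 1.26 (limma adjusted p = 0.00043). Chn1, a Rac-inactivating protein that acts behind Epha4, rose by 0.51, and the small GTPase genes Rnd2 and Rras by 0.54 and 0.52. The actin-oxidising enzyme Mical2 rose by 1.45 (0.75 with a pseudocount of 114). Its vehicle signals were 6.62, 36.3 and 67.1, with a mean under the filter signal of 63.6. Mical2 thus passed the filter only through the corticosterone arrays. In the limma fit with no filter its adjusted p was 0.023.

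Trio, an exchange factor for Rac that acts with Dcc, fell from 5524, 5446 and 6840 to 2435, 3258 and 4381 (−0.85, limma adjusted p = 0.00013). All 3 corticosterone arrays lay below all 3 vehicle arrays. Crmp1, a collapsin response mediator that carries semaphorin signals to microtubules, had 2875, 2027 and 2676 against 2263, 1643 and 1807 (−0.40, adjusted p = 0.0041). It was lower in each couple, while the groups overlapped. Dpysl2, of the same family, fell by 0.27 on the log2 scale. Rnd3, a small GTPase that opposes RhoA, had 1959, 867.3 and 982 against 1113, 621.2 and 804.8 (−0.51, adjusted p = 0.0058). Its groups overlapped, and it did not pass without couple 1 (0.058). Dscam, a netrin receptor of the immunoglobulin family, fell by 0.73 on the log2 scale, and did not pass as the mean over its tested probe sets (−0.50, limma adjusted p = 0.070). Chn1 and Rnd2 did not pass without couple 1 (0.11 and 0.079) or couple 2 (0.16 and 0.24), nor did Dpysl2, Dscam and Mical2 without couple 2 (0.086, 0.073 and 0.051). With no filter Chn1 and Rnd2 did not pass either (limma adjusted p = 0.074 and 0.091). Without the intensity trend Chn1, Rnd2, Crmp1, Rnd3 and Dpysl2 did not pass (0.053, 0.070, 0.072, 0.073 and 0.13).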

How the data were processed

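Signal intensity per probe set was measured on 6 arrays, 3 per treatment. The deposited intensity values are linear and were made by the authors with MAS5, per the submitters' processing notes; no source used here states its version or settings. The mean without the lowest and highest 2% was 500.2 on each array. Genes were named from platform probe sets with a single symbol (20826). Values were transformed to log2(signal + 28.6), the 25th percentile, the 40% of 31042 non-control probe sets with the lowest mean over all arrays were left out, and the other 18625 entered a linear model of treatment and couple (limma 3.58.1, R 4.3.3; eBayes with intensity trend; two-sided; Benjamini-Hochberg). The brightest tested probe set stood for each gene. As background signal served 22.8, below which lay 95% of values of 27 control probe sets for bacterial genes. The number of arrays limits the precision.

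Replicate numbers in the titles and the series' design text give the couples. Samples of 1 couple deviated together from their group means (r = 0.57, 0.52 and 0.35), and others did not (−0.48 to 0.003). Deviations from a group mean cancel out within the group, so the values for the others are no separate check of the couples. Nothing states that couples came from separate cultures or animals, so the p-values measure only the spread between these samples, which may be technical. The labels give no batch. The fit was tested on simulated data. The members and the lists of effectors and markers were chosen with earlier results of these data known. The text names every member, with values on each array for those that passed, and every effector that passed, with values for the 3 smallest p in each direction. Alternatives were: no couple term, each couple left out, pseudocounts of 7.14 and 114, no filter or 60% left out, quantile normalization, median centring, no trend, and the mean over a gene's probe sets.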

Additional observations from a re-analysis of the deposited data

How the results depend on the processing

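With 3 couples only large or even changes can pass, and dim genes rest on noisy signals. No direction of a gene that passed was reversed by any alternative run. The main values were 7 guidance genes higher, 1 lower, 10 probe sets changed and a median difference of 0.19, with 7 effectors higher and 5 lower. Without the couple as a replicate block 0 guidance genes were higher and 0 lower in limma (8 and 0 at a raw p below 0.05), 0 probe sets changed, and 2 effectors were higher and 0 lower. This block changed the call of all 8 guidance genes. Leaving out a couple gave 3 to 6 guidance genes higher, 0 to 1 lower, 3 to 9 probe sets changed, 4 to 7 effectors higher, 3 to 5 lower and a median of 0.11 to 0.26. Of all genes, 5.5% to 11.6% were then higher and 2.69% to 6.85% lower. With no filter 4 guidance genes were higher, beside 5.83% of all genes, and 6 probe sets changed. With 60% of probe sets left out, where 14 guidance genes were tested, 6 probe sets changed, the median was 0.073, and 4 effectors were higher. Of all genes 11.3% were then higher and 9.76% lower, with a median of −0.024. Quantile normalization gave a median of 0.084, against −0.016 over all genes. Centring each array on its median gave a median of 0.088, 2 guidance genes lower and 9 effectors lower, beside 18.3% of all genes lower. It takes 1 value off each array and so shifts the differences of all genes alike. The median of all genes went from −0.002 to −0.109. Without the intensity trend 0 guidance genes were lower (limma; 1 at a raw p below 0.05) and 2 effectors were, beside 1.78% of all genes. The alternative itself sets the smaller number of genes or couples, and the shared shift from centring. The cause of the other moves was not tested. The pseudocounts of 7.14 and 114 changed no call, but the larger one made the differences of dim genes smaller.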

Other observations

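Ablim1, an actin-binding protein of the netrin list that was too dim to be tested, had signals of 3.16, 41.3 and 13.8 with vehicle and of 71.2, 107.2 and 42.4 with corticosterone, without overlap. Met, a receptor tyrosine kinase that associates with plexins, was also below the filter, with 24.9, 3.46 and 14.4 against 68.5, 65.0 and 20.6. Each was higher with corticosterone in all 3 couples, and in the limma fit with no filter Ablim1 passed (1.12, adjusted p = 0.040) and Met did not (0.87, 0.12). Both were singled out after their values were seen.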
